A study of Mus musculus with 384 samples.

Results

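Macrophages grown from mouse bone marrow were followed for 4 h after addition of Pam3Cys, a synthetic bacterial lipopeptide. The 28 wells described here are all wells that the labels give as Pam3Cys at 0.5, 1, 1.5, 2, 2.5, 3 or 4 h, out of 384 wells in the series, which tested 12 ligands. There were 14 wells of Myd88 KO cells and 14 of WT cells, 1 well per plate and time on 2 plates of each genotype, called replicates 1 and 2. The baseline of each plate was the sum of its 12 wells labelled time 0, 48 wells in all. All cells came from male C57BL/6 mice aged 13 weeks and were grown in DMEM with serum and CMG medium, a source of macrophage growth factor. All of them, time 0 wells included, had been transduced on day 4 with a pool of viruses carrying pathway reporters, and were scraped and replated in 96-well plates on day 9. The Myd88 allele, the Pam3Cys dose and the number of mice are not given in the labels. Each plate held 1 genotype, so plate and genotype cannot be told apart. The p-values rest on the spread between the 2 wells, or 2 time 0 sums, of a group, pooled over 16 groups and moderated across genes. These pairs differ in both plate and well, and their spread may be technical.

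Pam3Cys is bound at the cell surface by Toll-like receptor 2, paired with Toll-like receptor 1. The receptor recruits the adaptor protein Myd88, which gathers the IRAK kinases and leads to activation of the IKK complex and of MAP kinases. IKK marks the inhibitor IkB-alpha, the product of Nfkbia, for destruction, and NF-kB dimers then enter the nucleus. In macrophages the genes switched on include immediate early transcription factors, chemokines and cytokines, and also inhibitors that shut the pathway off again, such as Nfkbia itself and Tnfaip3.

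Counts per well were 106245, 122510 and 192526 in the WT replicate 2 wells at 0.5, 1 and 1.5 h, and 228236 to 570465 in the other 25 wells. The time 0 sums held 3167670 to 4901235 counts. Those 3 shallow wells also stood apart in content. The summed level of 30 interferon-stimulated genes was 15330.1, 11164.5 and 8671.7 CPM, the share of a library's counts scaled to a common total, in them, against 5027 to 7671 CPM in the other 11 WT wells and 3333 to 5319 CPM in the 14 KO wells. Reads of Rn45s, the ribosomal RNA precursor, made up 23.0%, 20.2% and 15.5% of their counts, against 3.88% to 13.1% in the other 25 Pam3Cys wells, and 6526, 6712 and 7643 genes were detected in them, against 8514 to 10184. Fitted changes of single genes at 0.5, 1 and 1.5 h are given with and without them. Without them WT has 1 well at each of these times, which is assumed to vary like the other groups, so that such a value has no replicate check of its own. The part of depth, ribosomal RNA or interferon-stimulated genes in any change was not tested. Macrophage marker transcripts summed to 3196 to 4866 CPM in every Pam3Cys well, and the markers of B, T, NK, mast and red cells and of fibroblasts each to at most 17.2 CPM. Dendritic cell markers summed to 0 to 34.0 CPM in KO and 0 to 61.2 CPM in WT Pam3Cys wells, and to 9.27 to 14.2 CPM in the time 0 sums, with Flt3 at 0 counts. Neutrophil markers summed to 51.0 to 258 CPM. Of 7 such genes with values, 5 were detected, while Elane and Mpo had 0 counts. Whether some neutrophils were present was not tested. In such pooled lysates, fewer cells expressing a gene and less RNA of it per cell cannot be told apart.

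**Figure D1:**
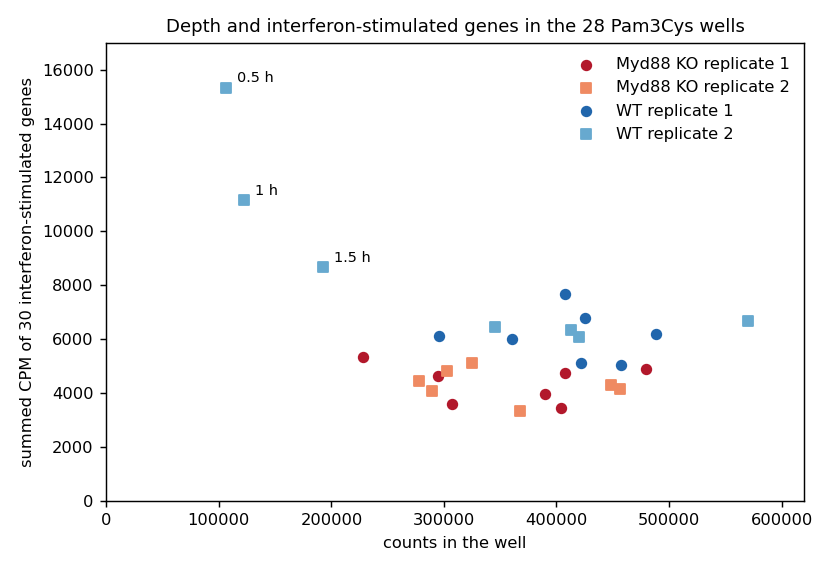
Counts in each of the 28 Pam3Cys wells (x axis) against the summed CPM of 30 interferon-stimulated genes (y axis), coloured by plate. The 3 shallow WT replicate 2 wells, marked 0.5, 1 and 1.5 h, lie at the top left with 15330.1, 11164.5 and 8671.7 CPM, above all other wells.

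The deleted gene itself was read at low level. Myd88 (chr9:119335934-119340018 in mm10) had 0 to 31.9 CPM up to 3 h and 9.54 and 45.9 CPM at 4 h in KO wells, and 14.4 and 16.9 CPM in the KO time 0 sums. WT wells had 0 and 5.6 CPM in the shallow wells at 0.5 and 1.5 h and 34.4 to 75.4 CPM in the others, with 29.7 and 35.5 CPM at time 0. At time 0 the log2 difference, KO minus WT, was -1.06 ± 0.76 (SE), which did not pass the test. The deleted part of the gene is not given, and a transcript 3' end outside it would check nothing.

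The genotypes already differed before any Pam3Cys was added. At time 0, 14 of 8111 genes tested passed an edgeR quasi-likelihood adjusted p of 0.05 between genotypes (0.173%), and all 14 were lower in KO. They were the chemokines Cxcl1, Cxcl2, Cxcl3 and Ccl3, the cytokines Tnf, Il1b and Il12b, the vasoconstrictor peptide Edn1, the acute-phase protein Saa3, the prostaglandin synthase Ptgs2, the matrix protease Mmp14, the inhibitors Nfkbiz and Socs3, and Fnbp1l, a membrane-curving actin regulator. Il1b had 37.4 and 35.5 CPM in the KO sums, against 474 and 612 CPM in the WT sums. The 24 single KO wells at time 0 ran from 0 to 132 CPM and the 24 single WT wells from 326 to 1986 CPM, so the genotypes did not overlap for Il1b. Its log2 difference was -3.89 ± 0.38 (edgeR adjusted p = 2.22e-10). Single wells did not overlap for Cxcl1 and Cxcl2 either. They did overlap for Cxcl3, Ccl3, Tnf, Il12b, Saa3, Ptgs2, Mmp14, Nfkbiz and Socs3. Edn1 and Fnbp1l were not read in single wells. All these genes were called from sums of the same wells, and the share of all genes without overlap was not counted. Since the 24 wells of a genotype share 2 plates, they are not independent samples, and the overlaps only describe these genes. For Tnf the highest KO well had 147 CPM and the lowest WT well 143 CPM. Cxcl1 had 5.28 and 8.3 CPM in KO, against 138 and 137 CPM in WT, a log2 difference of -4.32 ± 0.42 (edgeR adjusted p = 5.99e-11). Tnf had 52.6 and 53.9 CPM in KO, against 249 and 273 CPM in WT. With the 3 shallow wells left out, the fit called 41 genes at time 0. Changes described next are each relative to the same genotype's own time 0.

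KO wells showed few changes at any time. Past the threshold were 1 gene at each of 0.5, 1, 1.5, 2.5 and 3 h (0.0123% of genes tested) and 2 genes at 2 h and at 4 h (0.0247%). At an unadjusted p under 0.05 there were 191 to 402 genes at a time. A joint test over all 7 times called 5 genes (0.0616%). These were Id3, Hspa9, Nav2, Skil and Zc3h12c. With the plate as a replicate block the joint KO test called 14, and without the 3 shallow WT wells it called 75. It called 33 with no filter on low counts and 68 with DESeq2, and the cause of these moves was not tested. With KO replicate 2 left out it called 1, and without WT replicate 1 or WT replicate 2 it called 32 or 30. Leaving out KO replicate 1 or 2 left 0 or 1 gene at every single time, with Id3 lost at 1, 1.5, 3 and 4 h both times. These counts are small enough that 1 plate decides them.

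In WT wells the number of genes past the threshold grew over the course. It was 20 at 0.5 h (0.247%), 30 at 1 h (0.37%), 47 at 1.5 h (0.579%), 79 at 2 h (0.974%), 114 at 2.5 h (1.41%), 150 at 3 h (1.85%) and 160 at 4 h (1.97%). All 20 genes at 0.5 h were higher than at time 0. At 1 h 29 were higher (0.358%) and Fam46a alone was lower (0.0123%), a call lost without the shallow well. Higher and lower genes numbered 43 and 4 at 1.5 h (0.53% and 0.0493%), 67 and 12 at 2 h (0.826% and 0.148%), and 95 and 19 at 2.5 h (1.17% and 0.234%). They numbered 121 and 29 at 3 h (1.49% and 0.358%) and 120 and 40 at 4 h (1.48% and 0.493%). Each time added genes that no earlier time had called: 17 at 1 h, 25 at 1.5 h, 51 at 2 h, 52 at 2.5 h, 55 at 3 h and 46 at 4 h. In all, 266 genes were called at some time. The joint test over 7 times called 248 (3.06%), and 195 genes were in both sets. Without the 3 shallow wells the counts were 27, 45, 80, 181, 234, 354 and 355 from 0.5 to 4 h, and all genes called at 2 h or later with those wells were called without them. With WT replicate 1 left out the counts were 69, 60, 67, 18, 36, 71 and 63, and with WT replicate 2 left out 18, 21, 26, 32, 39, 44 and 55. The joint test called 440 and 104 genes in those fits.

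**Figure D2:**
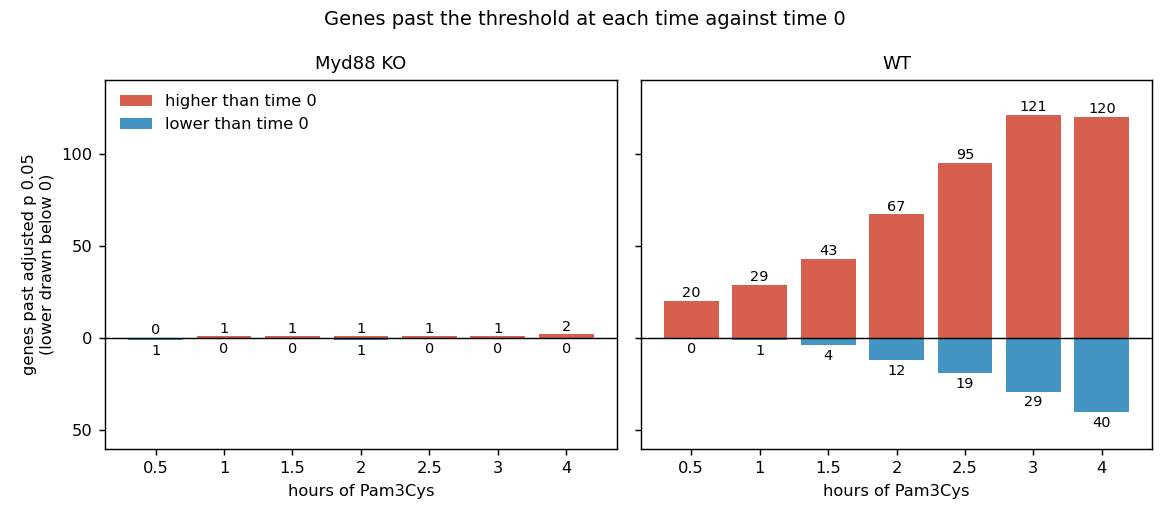
Number of genes past an edgeR adjusted p of 0.05 at each time of Pam3Cys against time 0 (x axis, hours), higher genes drawn above 0 and lower genes below it, for Myd88 KO (left) and WT (right). KO bars hold 1 or 2 genes, while WT bars grow to 120 higher and 40 lower at 4 h.

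Only 6 genes were called at all 7 times in WT, namely Nfkbia, Nfkbiz, Il1b, Cxcl1, Pde4b and Id3. Nfkbia (chr12:55489409-55492647) encodes IkB-alpha. Its KO wells held 531 to 1013 CPM, against 622 and 620 CPM in the KO time 0 sums. In WT replicate 1 it had 934 CPM at time 0, then 11816, 11536, 9711, 5873, 7992, 7200 and 6112 CPM from 0.5 to 4 h. In WT replicate 2 it had 1092 CPM at time 0, then 3521, 4019, 8711, 7926, 9202, 8994 and 7362 CPM. Every WT well lay above every WT time 0 well, whose highest was 1565 CPM, and no KO well reached the lowest Pam3Cys WT well. The WT log2 change was 2.93 ± 0.38 at 0.5 h (edgeR adjusted p = 4.46e-05), and 3.53 without the shallow well. At 0.5 and 1 h the lower plate is the one with the shallow wells.

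Nfkbiz, a nuclear IkB protein that works with NF-kB at some late genes, had 0 to 32.6 CPM in KO wells. Its WT wells had 771 and 398 CPM at 0.5 h and 1239 and 1013 CPM at 1 h, against 135 and 153 CPM at time 0. After 1 h the WT wells lay between 661 and 973 CPM. All 14 WT wells were above the highest WT time 0 well at 332 CPM. Pde4b, a phosphodiesterase that breaks down cyclic AMP, was also high throughout. It had 32.6 to 119 CPM in KO wells, with 37.8 and 27.4 CPM in the KO time 0 sums. Every KO well lay above the sum of its own plate, and 3 lay above all single KO time 0 wells. WT wells had 379 and 337 CPM at 0.5 h and 605 to 719 CPM from 2 h on, with 84.1 and 87 CPM at time 0. Cxcl1, a neutrophil attractant, was read at 0 to 33.9 CPM in KO wells and at 408 to 885 CPM in WT wells, against 138 and 137 CPM in WT at time 0. Il1b, the cytokine interleukin-1 beta, had 14.9 to 72.2 CPM in KO wells. WT wells held 1160 and 1949 CPM at 0.5 h, 3901 and 4035 CPM at 2 h, and 4824 and 5379 CPM at 3 h. The log2 change of Il1b at 3 h was 3.23 ± 0.36 (edgeR adjusted p = 1.61e-08). Its call at 0.5 h was lost without the shallow well, where the log2 change was 1.09.

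To read the order of the response, the 248 genes of the joint WT test were placed by the time of their largest fitted change, which was at least 1 on the log2 scale for 235. Of these, 170 had their largest change upward and 65 downward. The upward genes peaked at 0.5 h for 12, 1 h for 10, 1.5 h for 10, 2 h for 15, 2.5 h for 20, 3 h for 41 and 4 h for 62. The downward genes had their lowest point at 0.5 h for 3, 1 h for 1, 1.5 h for 4, 2 h for 7, 2.5 h for 16, 3 h for 14 and 4 h for 20. Upward genes that peaked at 0.5 or 1 h are called early here, those at 1.5 or 2 h middle and the rest late, and these classes held 22, 25 and 123 genes. Half-height times, read by straight lines between fitted points, had medians of 0.25, 1.06 and 1.63 h in the 3 groups. At 4 h the early group kept a median of 0.376 of its largest log2 change, the middle group 0.692, and the late group 1. Since the class was defined by the time of the largest change, these medians describe the groups and test nothing. Without the shallow wells 42 genes, up and down, had their largest change by 1 h, against 26 with them, and 273 at 2.5 h or later, against 173.

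**Figure D3:**
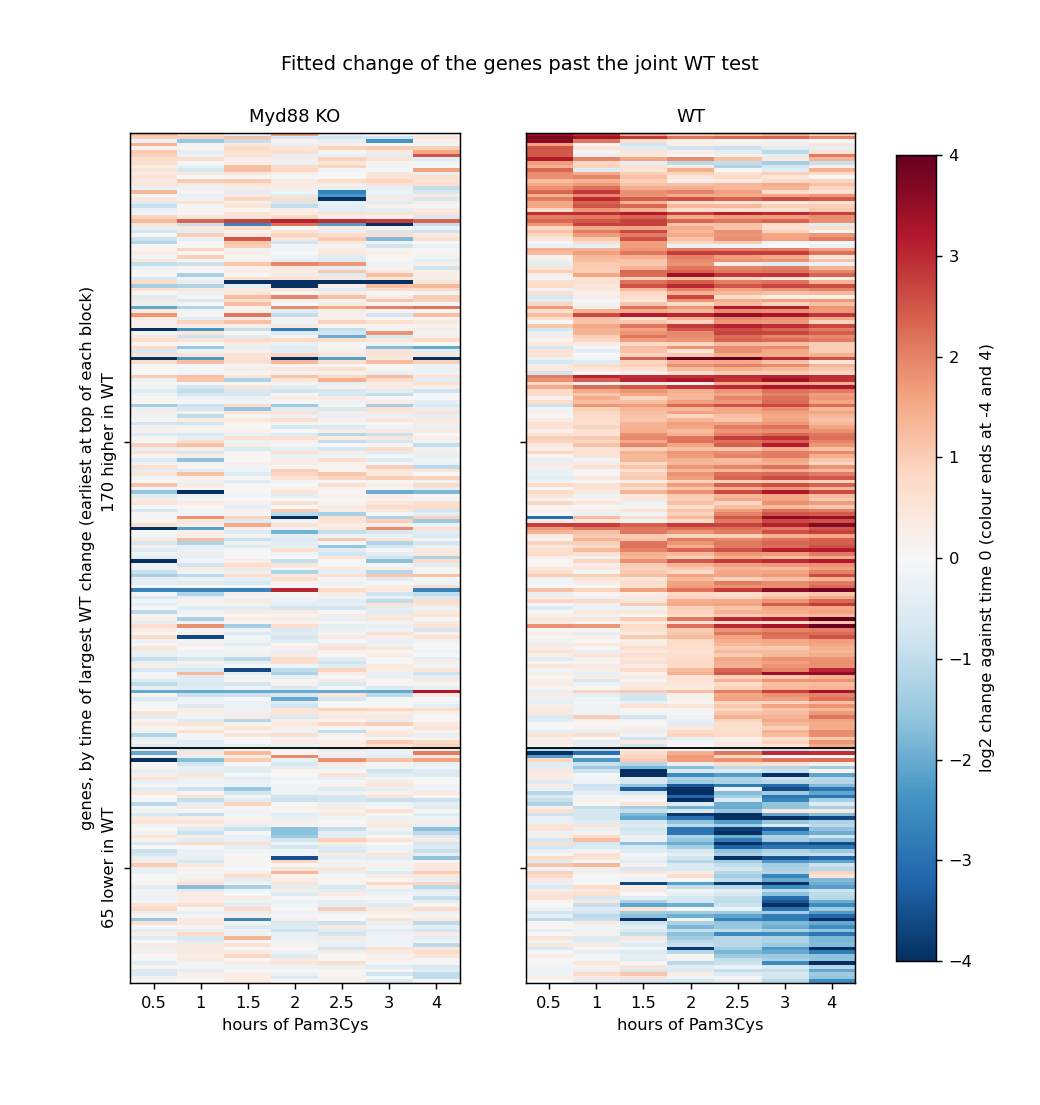
Fitted log2 change against time 0 (colour) of the 235 genes past the joint WT test, one row per gene and one column per time, in Myd88 KO (left) and WT (right). Rows are sorted by the time of the largest WT change, 170 higher genes above the line and 65 lower genes below it. In WT the strongest colour runs from top left to bottom right within each block, while the KO panel holds mostly pale rows.

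The order was also read in each plate by itself, over the same genes, which both plates had taken part in choosing. The direction of the largest change matched in both WT plates for 157 of the 170 upward genes, and the class matched for 120. When classes were picked in replicate 1 and read in replicate 2, the same class came out for 12 of 26 early genes, 8 of 25 middle genes and 100 of 118 late genes. Picking in replicate 2 and reading in replicate 1 gave 12 of 18 early, 8 of 24 middle and 100 of 116 late genes. Late was by far the largest class, with 123 of the 170 upward genes in the joint fit. Many late matches therefore come from class size alone. Genes picked as early in replicate 1 had median log2 changes in replicate 2 of 1.35 at 0.5 h, 1.53 at 1 h and 0.94 at 4 h. Genes picked as late had 0.44, 0.30 and 1.67 at the same times. Of the upward classes, the middle one matched least often between plates. For downward genes, 1 of 18 picked as early in replicate 2 was early in replicate 1, and 28 of 34 late ones were late. Across all genes the median log2 change in replicate 2 was -0.58, -0.50 and -0.28 at 0.5, 1 and 1.5 h, the shallow wells, and between -0.09 and -0.03 later. In replicate 1 it lay between -0.10 and -0.03 throughout.

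Immediate early transcription factors and their partners were among the early genes. Of 20 tested members of that list, 7 passed the joint WT test, against 3.06% of all genes, and 0 the joint KO test, against 0.0616%. At so low a share in KO a count of 0 tells nothing about a list, here and for the lists that follow. Egr1, a zinc-finger factor induced by MAP kinase signalling, had 0 to 40.8 CPM in KO wells. In WT it had 1508 and 194 CPM at 0.5 h, 507 and 94.5 CPM at 1 h, and 39.6 to 139 CPM later, with 84.8 and 60.1 CPM at time 0. Its peak was in both plates at 0.5 h, but far apart in height, and the log2 change of 3.60 ± 0.93 at 0.5 h did not pass by itself (edgeR adjusted p = 0.3). By the replicate 1 well alone it was 4.37. Fos, a partner in the AP-1 factor, had 84.8 to 425 CPM in KO wells, with 126 and 171 CPM at time 0, and 5 of the 14 lay above all KO time 0 wells. In WT it had 2874 CPM in replicate 1 and 398 CPM in replicate 2 at 0.5 h, with 301 and 282 CPM at time 0, and 2 of the 14 wells lay above all WT time 0 wells. It passed the joint WT test and not the joint KO test, but its largest change in replicate 2 was downward, -0.72 at 3 h. Ier3, a stress response gene that protects from cell death, and Btg2, an antiproliferative gene, rose at 0.5 h by 3.16 ± 0.64 and 3.36 ± 0.62 on the log2 scale, and by 3.86 and 4.04 without the shallow well. Jun, the AP-1 partner of Fos, fell by 1.96 ± 0.33 between the early and middle times (edgeR adjusted p = 0.00126), and by 2.49 without the shallow wells. Jund, a relative of Jun, came later. It had 54.2 to 209 CPM in KO wells, and 492 and 620 CPM at 2.5 h and 478 and 821 CPM at 3 h in WT wells, with 107 and 105 CPM at time 0. Without the shallow wells 12 members of the list passed the joint WT test.

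Genes that limit the same signals were also called. Dusp2, which removes phosphate from MAP kinases in the nucleus, had 0 to 44 CPM in KO wells, and WT wells of 727 and 122 CPM at 0.5 h and 326 and 361 CPM at 1 h, with 33.5 and 34.8 CPM at time 0. It rose at 0.5 h by 3.72 ± 0.67 on the log2 scale (edgeR adjusted p = 0.00419), and by 4.4 without the shallow well. Dusp1, its relative with a similar role, rose at 1 h by 1.95 ± 0.48, a call lost without the shallow well, where the change was 1.89 (edgeR adjusted p = 0.0572). These were 2 of 6 tested MAP kinase phosphatases in the joint WT test, against 3.06% of all genes. Among 7 mRNA decay regulators, 3 passed that test upward, 1 each placed as early, middle and late, and 2 downward, and 1, Zc3h12c, passed the joint KO test, against 0.0616% of all genes. Zfp36, tristetraprolin, which marks Tnf and other messages for decay, had 846 and 194 CPM in WT at 0.5 h, against 137 and 164 CPM at time 0. Zc3h12a, the RNase Regnase-1, reached a log2 change of 3.38 ± 0.70 at 3 h. Its KO wells held 0 to 21.2 CPM and its late WT wells 77.8 to 147 CPM. Zfp36l2, a relative of Zfp36, fell at 2.5 h by 2.02 ± 0.51, with 163 and 240 CPM in KO wells at that time and 53 and 21.1 CPM in WT wells.

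Both NF-kB precursor genes were among the late genes called in WT. Of 11 subunits and IkB proteins tested, 4 passed the joint WT test upward (3.06% of all genes) and 0 the joint KO test (0.0616%). Nfkb1, the p105 precursor, had 269 and 325 CPM at 2 h and 382 and 412 CPM at 4 h in WT, against 104 and 121 CPM at time 0, and 24.5 to 132 CPM in KO wells. Its log2 change passed from 2.5 h on and was 1.82 ± 0.39 at 4 h. Nfkb2, the p100 precursor, passed from 2 h on and was 2.16 ± 0.44 at 3 h. The subunits Rela, Rel and Relb did not pass the joint test. Among 9 ubiquitin-editing brakes 3 passed in WT, against the same 3.06%. Tnfaip3, the A20 protein, peaked at 1 h with 538 and 1177 CPM in WT, against 134 and 158 CPM at time 0, and ended at 256 and 309 CPM at 4 h. The 1177 CPM are from the shallow well, and the log2 change at 1 h was 2.52 with that well, which passed, and 1.88 by the replicate 1 well alone. Its KO wells held 8.97 to 89.1 CPM. Tnip1, an A20 partner, came later, with 917 and 768 CPM at 2 h and 1269 and 1102 CPM at 4 h in WT, against 238 and 328 CPM at time 0, and 55 to 205 CPM in KO wells.

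Upstream of these, 3 of 16 tested members of the receptor and signalling chain passed the joint WT test (3.06% of all genes), and 0 the joint KO test (0.0616%). They were Tlr2, the receptor itself, Cd14, a co-receptor for bacterial lipopeptides and lipopolysaccharide, and Tab2, an adaptor of the kinase TAK1. Tlr2 had 42.4 to 73.9 CPM in KO wells, with 42.0 and 35.0 CPM in the KO time 0 sums. Every KO well lay above the sum of its own plate, though none lay above all single KO time 0 wells. WT wells had 276 and 215 CPM at 2 h and 350 and 396 CPM at 2.5 h, with 66.1 and 79.3 CPM at time 0, a log2 change of 2.36 ± 0.42 at 2.5 h (edgeR adjusted p = 0.000177). Cd14 had 251 to 431 CPM in KO wells and reached 1161 and 997 CPM at 4 h in WT, against 292 and 313 CPM at time 0. The kinases Irak1, Irak2, Irak4 and Map3k7 did not pass. With the shallow wells left out, 4 members of this list passed.

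Chemokines were called at every time in WT. Of 17 tested, 7 passed the joint WT test (3.06% of all genes), all upward, and 0 the joint KO test (0.0616%). At single times 2 were called at 0.5 h, 4 at each of 1, 1.5 and 2 h, and 6 at each of 2.5, 3 and 4 h. Cxcl2 (chr5:90903899-90905938), a neutrophil attractant, had 6.88 to 119 CPM in KO wells. In WT replicate 1 it had 304 CPM at time 0, then 3680, 3418, 2454, 2471, 2438, 2816 and 4748 CPM. In WT replicate 2 it had 405 CPM at time 0, then 1102, 1408, 1232, 2366, 2318, 3234 and 4222 CPM. Both plates thus ended highest at 4 h, where the log2 change was 3.66 ± 0.58 (edgeR adjusted p = 0.00085). Cxcl3, of the same gene cluster, had 0 CPM in 11 of 14 KO wells, and reached 322 and 346 CPM at 4 h in WT, against 18.2 and 27.5 CPM at time 0. Ccl2, which attracts monocytes, turned back. It had 304 and 695 CPM at 1.5 h and 65.3 and 93.3 CPM at 4 h in WT, with 68.7 and 87 CPM at time 0 and 15.3 to 95.2 CPM in KO wells. The 695 CPM are from the shallow well, and the log2 change at 1.5 h was 2.66 with that well, which passed, and 1.94 by the replicate 1 well alone. The chemokines Ccl3 and Ccl4 reached 1221 and 1298 CPM and 1302 and 1179 CPM at 3 h in WT. Their annotated spans overlap on chromosome 11, so reads near the overlap could be counted for either. The interferon-linked Cxcl10 did not pass, with 173 to 407 CPM in KO wells. It had 1174, 1177 and 706 CPM in the shallow WT wells and 191 to 655 CPM in the other WT wells, with 358 and 461 CPM at time 0.

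Cytokines and growth factors gave 5 of 11 tested genes upward in the joint WT test (3.06% of all genes) and 0 in KO (0.0616%). Tnf had 2.61 to 77 CPM in KO wells. WT wells had 689 and 694 CPM at 0.5 h, 1189 and 782 CPM at 1 h and 839 and 885 CPM at 4 h, with 249 and 273 CPM at time 0. All 14 WT wells were above the highest of the 24 WT time 0 wells, at 594 CPM. The log2 change was 1.93 ± 0.35 at 1 h (edgeR adjusted p = 0.000965), and 2.19 without the shallow well. Csf1, macrophage growth factor, stepped up later. It had 0 to 53.1 CPM in KO wells, and WT wells of 407 and 399 CPM at 2 h, with 36.1 and 40.3 CPM at time 0. Its replicate 1 well at 1.5 h had 291 CPM and the shallow replicate 2 well 44.8 CPM. Il12b, a subunit of interleukins 12 and 23, rose at 2 h by 2.41 ± 0.60 on the log2 scale, with 223 and 167 CPM in WT, against 26.2 and 47.3 CPM at time 0. Tnfsf9, a ligand that costimulates T cells, had its high values of 214 and 189 CPM at 1 h and 45.2 and 42.8 CPM at 4 h. Il6, with 0 to 6.6 CPM in KO wells and at most 46.7 CPM in WT wells, did not pass. Ptgs2 did not pass either, with 294 and 327 CPM at 4 h in WT, against 84.3 and 135 CPM at time 0.

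**Figure D4:**
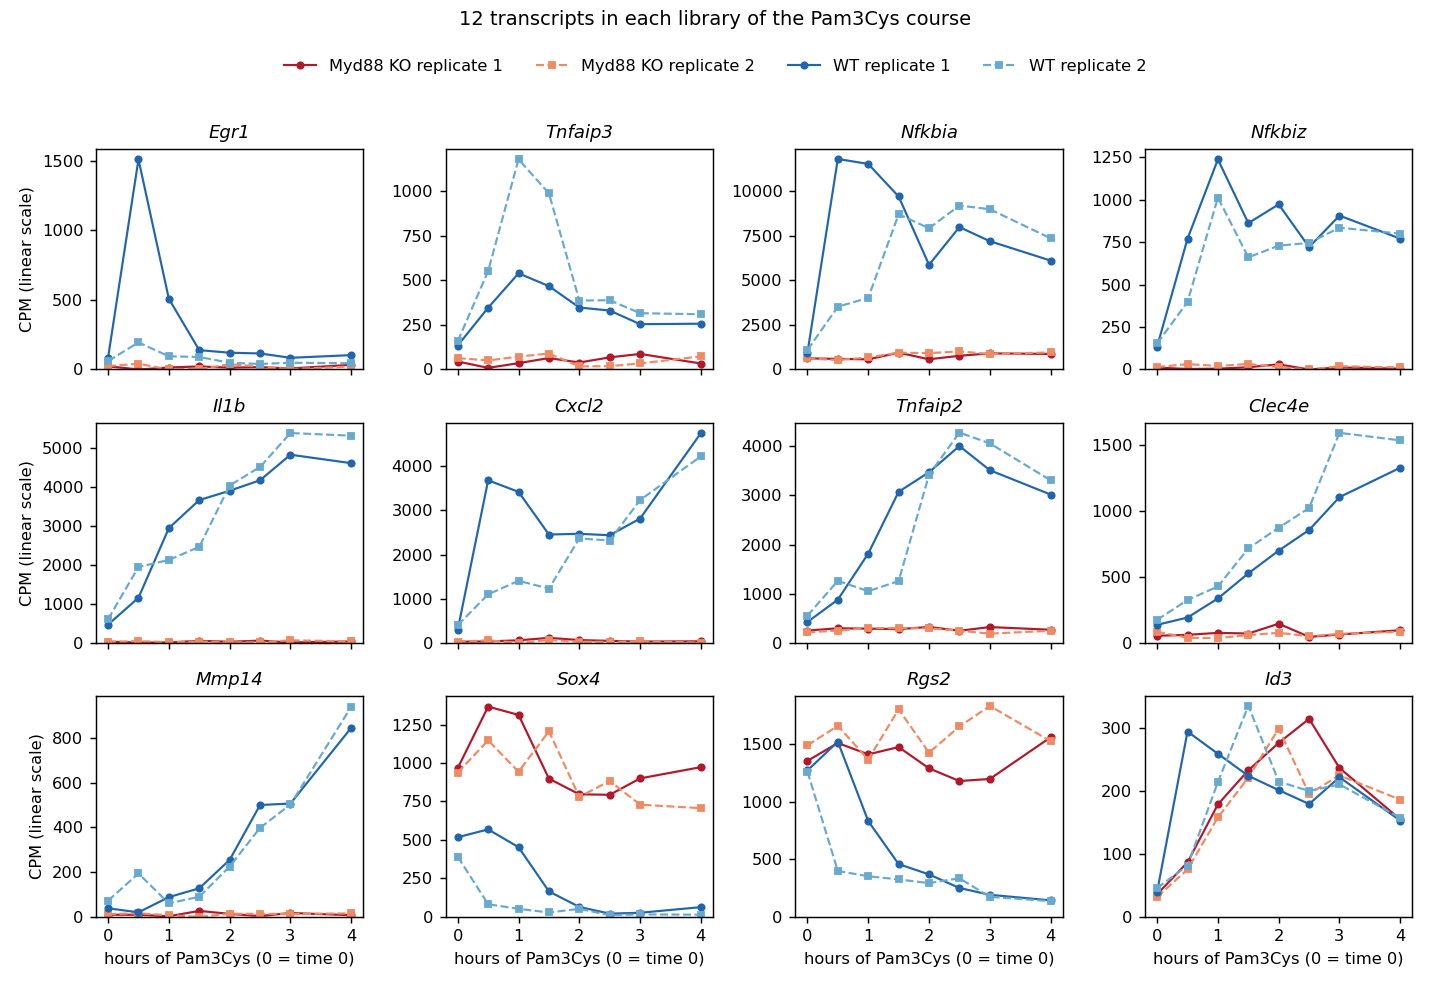
CPM of 12 transcripts (y axis, linear) at time 0 and 7 times of Pam3Cys (x axis, hours) in each plate, KO in red and WT in blue. Egr1 and Tnfaip3 peak by 1 h, Nfkbia and Nfkbiz stay high, Il1b, Cxcl2, Clec4e and Mmp14 reach their highest levels at 3 or 4 h, Sox4 and Rgs2 decline, and these shapes are seen in WT, while Id3 climbs in both genotypes.

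Late risers included surface molecules and enzymes. Of 12 adhesion and costimulation genes tested 7 passed the joint WT test (3.06% of all genes), all upward. Tnfaip2, a membrane-tubule protein, had 193 to 329 CPM in KO wells, and WT wells of 3473 and 3421 CPM at 2 h and 4005 and 4278 CPM at 2.5 h, with 429 and 559 CPM at time 0. Its log2 change at 2.5 h was 3.07 ± 0.32 (edgeR adjusted p = 4.49e-10). Clec4e, the receptor Mincle, had 37.9 to 147 CPM in KO wells and climbed in WT to 1106 and 1593 CPM at 3 h and 1329 and 1536 CPM at 4 h, with 139 and 176 CPM at time 0. Of 11 effector enzymes and acute-phase proteins 5 passed, all upward, against the same 3.06%. Mmp14 (chr14:54431598-54442456), a membrane-bound collagenase, had 0 to 26.4 CPM in KO wells. WT wells held 255 and 225 CPM at 2 h, 501 and 398 CPM at 2.5 h, 507 and 503 CPM at 3 h and 847 and 941 CPM at 4 h, with 38.1 and 72.3 CPM at time 0. This was a 16.2-fold higher level at 4 h (log2 4.02 ± 0.55, edgeR adjusted p = 2.8e-06). Cp, the copper-carrying ferroxidase ceruloplasmin, had 26.1 to 126 CPM in KO wells. In WT it had 287 and 341 CPM at 2 h and 664 and 1209 CPM at 3 h, with 156 and 173 CPM at time 0. Its late level exceeded its middle level by 1.92 ± 0.27 on the log2 scale (edgeR adjusted p = 1.41e-05). Irg1, which makes itaconate, and Saa3 rose at 4 h by 2.26 ± 0.49 and 3.34 ± 0.58. Of 12 survival genes 3 passed (3.06% of all genes), and these were the Bcl2a1 copies. Bcl2a1a, Bcl2a1b and Bcl2a1d rose from 2.5 h on, with calls at 1.5 h that were lost without the shallow wells. Since these copies are nearly identical, how reads were split between them is uncertain.

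The 1.5 and 2 h wells were also compared directly with the wells before and after them. Between the early and middle times 20 genes changed in WT (0.247%), 15 higher and 5 lower at the middle times. With DESeq2 size factors the same number split into 11 and 9. The number depends on the fit. With all 12 ligands in the fit it was 2 and with the single Pam3Cys-labelled time 0 well 4, while the replicate block gave 31, DESeq2 56, the fit without the shallow wells 75, and leaving out WT replicate 1 gave 43. Lower at the middle times were Jun, Btg2, Rgs2, Slc26a11 and 2410006H16Rik. Higher were Tnfaip2 by 1.14 ± 0.21, Clec4e by 1.19 ± 0.25, Csf1 by 1.91 ± 0.44 (1.34, 1.31 and 2.01 without the shallow wells) and Cd14 by 0.94 ± 0.22, the last lost without them, and also Ezr, which links membrane and actin. Between the middle and late times 63 genes changed (0.777%), 37 higher and 26 lower at the late times. Mtdh, a membrane protein that can bind the NF-kB subunit p65, had 1381 to 2108 CPM in KO wells. In WT it had 1398 to 2364 CPM up to 1.5 h, 3140 and 3350 CPM at 2 h and 5132 to 6056 CPM from 2.5 h on. Late minus middle, its log2 change was 1.04 ± 0.16 (edgeR adjusted p = 4.34e-05). Gda, guanine deaminase, was higher by 2.11 ± 0.31 and Pou2f2, the factor Oct2, by 1.47 ± 0.26. Lower at the late times were Rasgrp3, an activator of Ras, and Mef2c, a transcription factor, with log2 differences of -1.99 ± 0.37 and -1.46 ± 0.31. Leaving out WT replicate 2 left 5 calls in this comparison, WT replicate 1 144, and KO replicate 1 or 2 39 or 37. The comparison gave 18 calls with the single time 0 well, 19 with all 12 ligands, 87 without the shallow wells and 144 with DESeq2.

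Most genes that fell had their largest change late, as did most genes that rose. Of the 65 genes with their largest WT change downward, 50 had it at 2.5 h or later, next to 123 of the 170 upward genes. Among the 65 downward genes, 17 had 3 counts or fewer at their lowest time, for which no fold is given. Rgs2 (chr1:143999338-144004149), which damps G-protein signals, had 1180 to 1832 CPM in KO wells. In WT replicate 1 it had 1271 CPM at time 0, then 1522, 831, 458, 368, 250, 191 and 143 CPM. In WT replicate 2 it had 1261 CPM at time 0, then 398, 352, 325, 293, 335, 173 and 136 CPM. The plates differ by 0.5 h, where the replicate 2 well is shallow, and meet from 1.5 h on. At 4 h the log2 change was -3.18 ± 0.37 (edgeR adjusted p = 1.68e-08), and 8 of 14 WT wells lay below the lowest WT time 0 well. Sox4, a transcription factor of progenitor cells, had 706 to 1366 CPM in KO wells and fell to 20.6 and 10.5 CPM at 2.5 h in WT, against 517 and 390 CPM at time 0, a log2 change of -4.87 ± 0.96 (edgeR adjusted p = 0.0104). Its shallow wells had 81.7, 51.5 and 28 CPM, where replicate 1 had 568, 453 and 165 CPM. Hhex, a homeobox gene of blood progenitors, had 88.1 and 123 CPM in KO wells and 0 and 7.91 CPM in WT wells at 2.5 h. Of the list of macrophage identity genes, the fractalkine receptor Cx3cr1 passed the joint WT test upward. Cx3cr1 had 550 and 537 CPM at 4 h in WT, against 201 and 181 CPM at time 0, and 584 and 214 CPM in KO wells at 4 h.

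The 4 genes placed as falling early were H2-M2, Sap30, Dock2 and Slc39a14. At their lowest time they had 0, 4, 64 and 3 counts over both WT plates, and 1 of the 4 had the same class in both plates. H2-M2, a nonclassical MHC gene, had 0 to 2.38 CPM up to 1 h and 118 and 128 CPM at 4 h in WT, with 9.58 and 23 CPM at time 0. Slc39a14, a zinc and iron importer, had 46.2 and 71.4 CPM at 0.5 h, 2.38 and 17.2 CPM at 1 h and 121 and 167 CPM at 4 h in WT, with 25.2 and 37.1 CPM at time 0.

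The remaining lists are set against 3.06% of all genes in the joint WT test. Of 30 interferon-stimulated genes 1 passed the joint test, Ifi205, a DNA-sensor relative that rose at 3 h by 2.22 ± 0.40, with 104 and 93.5 CPM in KO wells and 703 and 1057 CPM in WT wells. Rsad2, viperin, had 5838, 3916 and 2902 CPM in the shallow wells and 1427 to 2235 CPM in the other WT wells, with 1584 and 2196 CPM at time 0, and did not pass. The joint test called 0 of 12 glycolysis and hypoxia genes, 0 of 7 cholesterol synthesis genes, and 1 of 16 cell cycle genes, Mki67. Of 9 NRF2 targets 2 passed, the glutathione synthesis subunit Gclm and the autophagy adaptor Sqstm1. Of 12 cytokine brakes and decoys 3 passed, namely Socs3, Tnfrsf1b and Il4ra. Socs3, which blocks interleukin-6 signalling, had 0 to 28.3 CPM in KO wells and 353 and 435 CPM at 2.5 h in WT, against 29.9 and 40.3 CPM at time 0, a log2 change of 3.49 ± 0.51.

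The bases before the start of 4 genes are shown, because the response is read at NF-kB targets and the consensus site can be looked for directly. They are RefSeq sequences of GRCm38.p6 in the direction of the gene, 250 bases ending just before its start, with matches to the NF-kB consensus in capitals. Overlapping matches run together in Cxcl2 and Tnip1, and the match in Nfkbia begins at position -29 from the start. Nfkbia is chr12:55492648-55492897 on the minus strand, Cxcl2 is chr5:90903649-90903898 on the plus strand, Tnip1 is chr11:54962941-54963190 on the minus strand and Id3 is chr4:136143572-136143821 on the plus strand. The gene span of Tnip1 in the annotation used for the other coordinates ends at 54962956, so the Tnip1 stretch runs into that span. In WT, Nfkbia and Cxcl2 were both above time 0 at 0.5 h in both plates, and Cxcl2 had its highest level at 4 h. Tnip1 was up in both plates from 2 h on. At 1.5 h it had 640 CPM in replicate 1, against 238 CPM at time 0, and 291 CPM in the shallow replicate 2 well, against 328 CPM. Id3 holds no match and also rose in KO. A link between a match and the change in KO was not tested, and 4 genes cannot decide it. Most genes that rose in WT held no match either. By the count described next, it was found in 4 of 18 early, 4 of 20 middle and 19 of 101 late ones with a sequence.
Nfkbia: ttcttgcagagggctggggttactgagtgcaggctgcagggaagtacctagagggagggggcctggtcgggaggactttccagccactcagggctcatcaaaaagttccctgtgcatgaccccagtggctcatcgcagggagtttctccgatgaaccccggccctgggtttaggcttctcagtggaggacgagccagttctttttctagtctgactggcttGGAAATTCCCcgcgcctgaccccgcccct
Cxcl2: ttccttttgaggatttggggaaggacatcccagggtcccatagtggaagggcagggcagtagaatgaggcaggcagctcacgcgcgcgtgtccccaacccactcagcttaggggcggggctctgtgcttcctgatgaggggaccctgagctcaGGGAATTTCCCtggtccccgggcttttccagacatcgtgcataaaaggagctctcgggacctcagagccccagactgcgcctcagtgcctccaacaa
Tnip1: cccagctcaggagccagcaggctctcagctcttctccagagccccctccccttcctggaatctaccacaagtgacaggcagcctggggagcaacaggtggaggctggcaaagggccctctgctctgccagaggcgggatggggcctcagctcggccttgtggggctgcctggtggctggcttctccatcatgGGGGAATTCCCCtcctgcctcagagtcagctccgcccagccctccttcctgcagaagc
Id3: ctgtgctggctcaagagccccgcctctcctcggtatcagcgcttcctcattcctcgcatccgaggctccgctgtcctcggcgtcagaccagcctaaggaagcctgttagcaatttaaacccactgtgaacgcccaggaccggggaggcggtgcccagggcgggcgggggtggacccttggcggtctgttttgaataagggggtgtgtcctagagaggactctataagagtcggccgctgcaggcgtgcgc

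Of the 8111 genes tested, 6541 had such a sequence, here with 50 bases past the start included. The NF-kB consensus, on either strand, was found in 12.1% of them. It was found in 22.2% of the 18 early risers with a sequence, 20.0% of 20 middle ones and 18.8% of 101 late ones. The cyclic-AMP response element TGACGTCA was found in 16.7% of early risers, 5.0% of middle and 1.98% of late ones, against 3.61% of all, which is 3 genes in the early group. The AP-1 site TGANTCA was found in 5.56%, 5.0% and 10.9% of the 3 groups and 6.24% of all. The interferon-stimulated response element was found in 5.56%, 0% and 9.90%, against 4.23% of all. The serum response element was found in 5.56%, 5.0% and 1.98%, which is 1, 1 and 2 genes, against 1.64% of all. Motif matches can overlap each other and describe letters only. For the downward groups fewer than 80% of genes had a sequence, so that check is void. Of the 50 late falling genes 38 had one, and 23.7% of these held the NF-kB consensus.

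The genes of the WT course were then read in KO. Over the 170 genes that rose in WT, the median log2 change in KO was -0.04, -0.12, 0.10, 0.01, 0.10, 0.09 and 0.01 from 0.5 to 4 h, next to -0.05, -0.03, -0.03, -0.07, -0.05, -0.05 and -0.03 over all genes. In WT the medians of these genes, which were chosen on them, were 0.34, 0.56, 1.04, 1.30, 1.54, 1.66 and 1.65. In KO 72 to 101 of the 170 were above 0 at a time, next to 45.2% to 48.3% of all genes. At time 0 the same genes were lower in KO for 153 of 170, with a median log2 difference of -0.54 next to 0.04 over all genes, of which 45.9% were lower. The WT time 0 sums enter both that difference and the choice of the genes. Over the 65 genes that fell in WT the KO median was -0.02 at 2.5 h, -0.08 at 3 h and -0.24 at 4 h, and 21 of 65 were lower in KO at time 0.

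The difference of the 2 courses was tested directly, as the KO change minus the WT change at each time. The time 0 sums enter both this difference and the time 0 comparison above. The difference passed for 1 gene at 0.5 h (0.0123%), 5 at 1 h (0.0616%), 0 at 1.5 h, 5 at 2 h (0.0616%), 23 at 2.5 h (0.284%), 24 at 3 h (0.296%) and 22 at 4 h (0.271%). At 1.5 h, edgeR had 240 genes at an unadjusted p under 0.05, and DESeq2 called 10. The joint test over 7 times called 34 (0.419%). Of the genes called at 2.5 to 4 h, 2, 4 and 2 had a positive difference and 21, 20 and 20 a negative one. With DESeq2 size factors the 2 h calls split into 1 positive and 5 negative and the 3 h calls into 6 and 15. With the replicate block the counts at 0.5, 1, 1.5, 2 and 3 h were 0, 3, 8, 12 and 40. Without the shallow wells they were 7, 20, 14, 37, 72, 93 and 87, and 144 jointly. With KO replicate 2 left out they were 1, 1, 0, 0, 2, 2 and 2, and 6 jointly. With KO replicate 1 left out they were 0, 0, 1, 1, 11, 6 and 8, and without WT replicate 1 27, 16, 11, 9, 15, 20 and 19, with 185 jointly. Without WT replicate 2 the 1.5 h count was 7.

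Nfkbia was the 1 gene called at 0.5 h, with a difference of -3.07 ± 0.52 (edgeR adjusted p = 0.00815), a KO change of -0.14 and a WT change of 2.93. Without the shallow well the difference was -3.68. The call was lost with the replicate block (edgeR adjusted p = 0.28), with the single Pam3Cys-labelled time 0 well (0.126), and with KO replicate 1 or KO replicate 2 left out. At 1 h it was joined by Il1b, Ccl3, Nfkbiz and Prdm1, the repressor Blimp-1. At 2 h Tnfaip2, Il1b, the cell cycle inhibitor Cdkn1a, Nfkbia and 4930470H14Rik passed. The 10 genes with the smallest joint p were Cp, Tnfaip2, Mtdh, Rgs2, Clec4e, Appl1, Il1b, Nfkbiz, Plagl2 and Bcl2a1d. Of these only Rgs2 had a positive difference. At 4 h its wells had 1560 and 1526 CPM in KO and 143 and 136 CPM in WT, and the difference was 3.30 ± 0.49 (edgeR adjusted p = 7.05e-05). For Tnfaip2 the difference at 2.5 h was -2.98 ± 0.43 (edgeR adjusted p = 2.85e-05), with KO wells of 251 and 253 CPM and WT wells of 4005 and 4278 CPM. Clec4e had 65.3 and 70.1 CPM in KO and 1106 and 1593 CPM in WT at 3 h, a difference of -3.16 ± 0.49. Mtdh had 1801 and 1929 CPM in KO and 6056 and 6001 CPM in WT at 4 h, a difference of -1.83 ± 0.34 (edgeR adjusted p = 0.0017), and at time 0 it had 2200 and 1973 CPM in KO and 1893 and 1905 CPM in WT. Appl1, an endosomal adaptor, had 71.5 and 39.8 CPM in KO and 465 and 612 CPM in WT at 4 h. Plagl2, a zinc-finger factor, had 48.4 and 40.4 CPM in KO and 421 and 440 CPM in WT at 3 h. For Cp the wells at 3 h had 46 and 102 CPM in KO and 664 and 1209 CPM in WT. At 4 h Cybb, the catalytic subunit of the NADPH oxidase, differed by -1.79 ± 0.35, and the antioxidant regulator Nfe2l2 by -2.11 ± 0.45. A large fitted value such as -8.76 for Nfkbiz at 2.5 h comes from KO wells with 0 counts and is no measure of size.

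**Figure D5:**
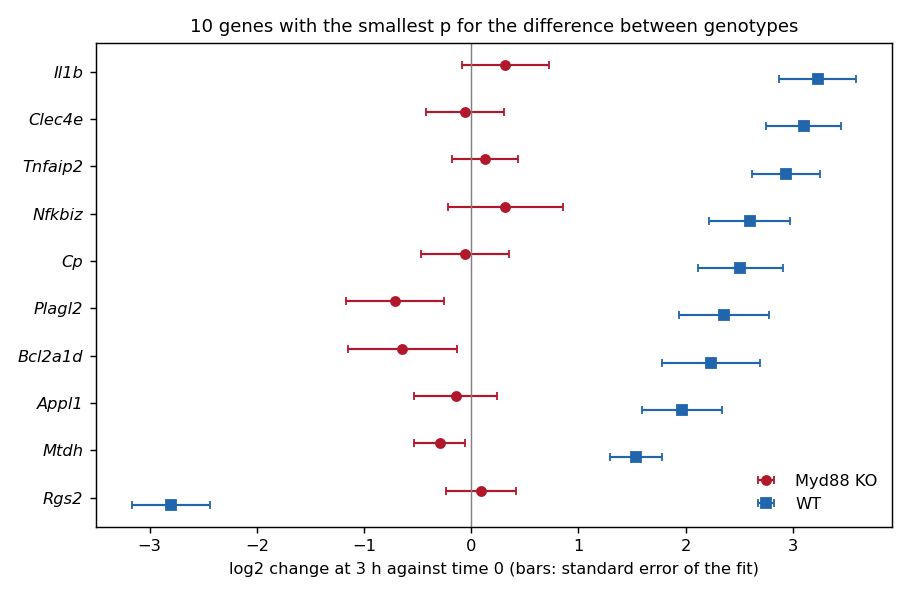
Fitted log2 change at 3 h against time 0 (x axis, bars are standard errors) of the 10 genes with the smallest joint p for the difference between genotypes, Myd88 KO in red above WT in blue for each gene. WT points of 9 genes lie right of 0 and that of Rgs2 left of it, while the KO points lie nearer to 0.

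Id3 was the 1 gene that changed at most times in both genotypes. It encodes an inhibitor of basic helix-loop-helix factors and is a known target of BMP and TGF-beta signalling. In KO it had 35.9 and 31.5 CPM at time 0, then 86.7 and 75.4 CPM at 0.5 h, 179 and 158 CPM at 1 h, 233 and 222 CPM at 1.5 h, 277 and 300 CPM at 2 h, 315 and 196 CPM at 2.5 h, 237 and 225 CPM at 3 h and 155 and 187 CPM at 4 h. In WT it had 39.7 and 45.7 CPM at time 0, then 295 and 81.7 CPM at 0.5 h, 260 and 215 CPM at 1 h, 225 and 336 CPM at 1.5 h, 202 and 215 CPM at 2 h, and 153 to 222 CPM later. In the KO plates 10 of 14 wells, and in the WT plates 13 of 14, lay above all time 0 wells of their genotype. The KO log2 change was 3.09 ± 0.41 at 2 h (edgeR adjusted p = 1.5e-06) and the WT change 2.29 ± 0.40 (edgeR adjusted p = 0.000225). The same gene was also high in wells of the other 11 ligands. On unscaled CPM, the median of those 22 wells at a time ran from 96.8 to 206 in KO, against 33.1 at time 0, and from 119 to 177 in WT, against 37.3 at time 0. Its relative Id2 rose in WT at 0.5 and 1 h, by 1.25 ± 0.28 and 1.38 ± 0.28, and by 1.38 and 1.78 without the shallow wells. In KO it had 1272 and 1095 CPM at 1 h, against 523 and 645 CPM at time 0, a change of 1.02 that did not pass, while the fit without the shallow WT wells called it (log2 1.01, edgeR adjusted p = 0.0221).

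The other genes of the joint KO test, and 1 more called at a single time, had the following values. Hspa9, the mitochondrial chaperone mortalin, had 1145 and 2095 CPM at 4 h in KO, against 314 and 245 CPM at time 0, and 723 and 1944 CPM at 4 h in WT, against 305 and 334 CPM at time 0. It was also high in WT at 0.5 h, with 885 and 2715 CPM, a call lost without the shallow well, and lay between 163 and 583 CPM in all KO wells before 4 h. Its 4 h change was 2.53 ± 0.44 in KO and 2.06 ± 0.44 in WT on the log2 scale (edgeR adjusted p = 0.00688 and 0.00392). In wells of the other ligands at 4 h the highest unscaled CPM was 497 in KO and 439 in WT, while at 3 h single wells of them reached 1711 in KO and 1865 in WT. Nav2, a cytoskeletal protein first known from neurons, was high in all 4 plates at 2 h, with 143 and 259 CPM in KO, against 53 and 53.1 CPM at time 0, and 219 and 215 CPM in WT, against 67.9 and 57.9 CPM at time 0. KO wells also had 152 and 71.7 CPM at 1.5 h and 183 and 172 CPM at 2.5 h. Nav2 had 57.2 and 64.2 CPM in KO and 45.2 and 60.3 CPM in WT at 4 h. Zc3h12c, a relative of Regnase-1, had 112 and 107 CPM at 1.5 h in KO, against 24.9 and 13.8 CPM at time 0, and 592 and 353 CPM in WT, against 65.3 and 97.2 CPM at time 0. Skil, the SnoN repressor of TGF-beta signalling, fell at 0.5 h in KO by 2.64 ± 0.51 (edgeR adjusted p = 0.0219), with 8.97 and 25.1 CPM, against 103 and 109 CPM at time 0. B630005N14Rik, called at 2 h but not in the joint test, was lower in KO, with 51.9 and 88.5 CPM, against 236 and 339 CPM at time 0. Each of these times rests on 1 well per plate.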

How the data were processed

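RNA 3' ends were counted in 384 wells by a modified SCRB-Seq protocol, per the labels. The deposited values are counts that were not normalized, whole numbers for every gene in every well. Reads were aligned with BWA to mm10, per the submitters' processing notes, and no source used here gives the annotation, the counter or whether molecular identifiers were collapsed.

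The 12 time 0 wells of each plate were summed, whichever ligand their label carries. The 28 Pam3Cys wells and 4 sums, 32 libraries in 16 groups, were fitted in edgeR 4.0.16 under R 4.3.3 by robust quasi-likelihood with TMM scaling. The filter (filterByExpr, minimum count 10) kept 8111 of 23481 genes, of which 8970 had no count. Calls are Benjamini-Hochberg adjusted p under 0.05 over all genes tested. CPM were computed from the counts and TMM-scaled totals, and changes per plate used a prior count of 2. Fits were tested on simulated data. Intervals and standard errors rest on 2 plates per group, and depth per well is given with the results.

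The members and gene lists were chosen with earlier results of these data known. Genes are named if they belong to 25 fixed response genes, are among the 4 highest or 4 lowest changes at a WT time with 30 or more counts and 1 sign in both plates, passed in KO, are among the 10 smallest p of the difference or the 4 smallest of a list, or lead a peak time by size, 5 each. Others are named after their values were seen. These are Prdm1, Cdkn1a, 4930470H14Rik, Ezr, Gda, Pou2f2, Rasgrp3, Mef2c, Cybb, Nfe2l2, Edn1, Fnbp1l, Sap30 and Dock2. Coordinates are mm10 with GENCODE vM21.

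The labels name the plate, so wells of 1 plate share a batch. Across 28 pairs of times per genotype the wells' deviations correlated at a median r of 0.0085 in WT and 0.0166 in KO. Alternatives were DESeq2 1.42.0 size factors and test, no filter, the plate as a replicate block, the single Pam3Cys-labelled time 0 well as baseline, all 12 ligands in the fit, and each plate left out. Leaving out the 3 shallow wells was chosen after seeing the data. Some results are not reported here.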

Additional observations from a re-analysis of the deposited data

Results flagged for a closer look

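The change after Pam3Cys differed between Myd88 KO and WT in the direct edgeR test of the difference, for 1 gene at 0.5 h, 5 at 1 h, 0 at 1.5 h, 5 at 2 h, 23 at 2.5 h, 24 at 3 h and 22 at 4 h, and for 34 genes over the 7 times. The 10 genes with the smallest edgeR adjusted p over the 7 times were Cp and Tnfaip2 (8.71e-06 each), Mtdh (1.78e-05), Rgs2 (2.78e-05), Clec4e (0.00015), Appl1 (0.00083), Il1b (0.00177), Nfkbiz (0.00253), Plagl2 (0.00398) and Bcl2a1d (0.00546). At 3 h the fitted log2 change of Rgs2 was 0.09 in KO and -2.80 in WT, and that of Clec4e was -0.06 in KO and 3.10 in WT. Genotype and plate cannot be told apart in these differences.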

How the results depend on the processing

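Counts of called genes moved by over 1.5 times as follows, listed by time for changes, then as joint counts. With the single Pam3Cys-labelled time 0 well as baseline, WT had 3, 5, 16, 15, 34, 56 and 43 calls from 0.5 to 4 h and 106 jointly. KO had 4, 2 and 3 at 0.5, 1 and 1.5 h, 2, 3 and 5 at 2.5, 3 and 4 h, and 13 jointly. The difference had 0 at 0.5, 1 and 2.5 h, 2 at 2 h, 1 at 3 h, 3 at 4 h and 4 jointly, middle minus early 4, late minus middle 18, and time 0 23. Under that baseline the difference of Mmp14 at 4 h took the opposite sign, 2.43, and did not pass, and the cause was not tested. With the DESeq2 test WT had 48, 94, 143, 202, 265 and 277 calls from 1 to 4 h and 435 jointly. KO had 2 at 1 h, 3 at 1.5 h, 2 at 3 h and 68 jointly. The difference had 9, 10, 13, 39, 63 and 55 from 1 to 4 h and 118 jointly, middle minus early 56 and late minus middle 144. With all 12 ligands in the fit WT had 15, 30, 36, 64, 88 and 96 from 1 to 4 h and 143 jointly. KO had 0 at 0.5 h, 1 at 2 h and 2 jointly. The difference had 1 at 1, 1.5 and 2 h, 9, 10 and 10 from 2.5 to 4 h and 19 jointly, middle minus early 2 and late minus middle 19. Without the 3 shallow WT wells, chosen after seeing the data, WT had 80, 181, 234, 354 and 355 from 1.5 to 4 h and 423 jointly. KO had 2, 5, 6 and 6 from 0.5 to 2 h and 75 jointly. The difference had 7, 20, 14, 37, 72, 93 and 87, and 144 jointly, middle minus early 75 and time 0 41. With no filter KO had 2 at 1.5 h and 33 jointly, and the difference 9 at 1.5 h, 13 at 2 h, 39 at 3 h and 85 jointly. With DESeq2 size factors KO had 0 at 0.5 h, 1 at 2 h and 1 at 4 h, and the difference 1 at 1.5 h. These factors shifted the median of all genes by 0.11 at 0.5 h in KO and in WT, 0.12 at 2 h in KO, and 0.11 in the difference at 2.5, 3 and 4 h. With the plate as a replicate block the difference had 0, 3, 8, 12 and 40 at 0.5, 1, 1.5, 2 and 3 h, KO 14 jointly and middle minus early 31, and no other count moved by over 1.5 times.

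With each plate left out in turn, KO counts ran from 0 to 1 at 0.5, 1, 1.5, 2.5 and 3 h, from 0 to 3 at 2 h and at 4 h, and from 1 to 32 jointly. WT counts ran from 18 to 69 at 0.5 h, 21 to 60 at 1 h, 26 to 67 at 1.5 h, 18 to 84 at 2 h, 36 to 120 at 2.5 h, 44 to 156 at 3 h, 55 to 151 at 4 h, and 104 to 440 jointly. The difference ran from 0 to 27 at 0.5 h, 0 to 16 at 1 h, 0 to 11 at 1.5 h, 0 to 9 at 2 h, 2 to 22 at 2.5 h, 2 to 20 at 3 h, 2 to 19 at 4 h, and 6 to 185 jointly. Middle minus early ran from 17 to 43 and late minus middle from 5 to 144. Genes with their largest change by 1 h numbered 42 without the shallow wells, 43 by WT plate 2 alone and 16 at a log2 size of 2 or more, and those at 2.5 h or later 273 without the shallow wells and 86 at that size. Of 471 called results of 98 named genes, the same call held for 450 with DESeq2 size factors, 452 with DESeq2, 455 with no filter, 449 with the block, 450 without the shallow wells, 298 with all ligands, 165 with the single baseline well, and 381, 360, 223 and 251 without KO replicate 1, KO replicate 2, WT replicate 1 and WT replicate 2. With 1 well per plate and time, and 106245 counts in the shallowest, low transcripts in single wells are limited by depth.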
